A study of Mus musculus with 35 samples.

Results

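Radial glia are the neural stem cells of the embryonic brain. Their bodies line the ventricles, their long fibres guide newborn neurons outward, and their divisions give rise to intermediate progenitors, neurons and later to glia. They are recognised by a group of transcription factors that hold the progenitor state, by proteins of the glial membrane and cytoplasm, and by the intermediate filaments of their fibres. The 9 genes described here were taken by name from that group, out of 53465 genes listed in the bulk table, and all 9 had values in every data set used. The transcription factors were *Sox2*, *Pax6*, *Sox9* and *Sox21*. The membrane and cytoplasmic proteins were *Slc1a3*, the glutamate transporter GLAST, *Ttyh1*, a membrane protein of the tweety family, and *Fabp7*, the brain lipid-binding protein. The filament genes were *Vim*, for vimentin, and *Nes*, for nestin.

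The data came from whole mouse brains at E14.5, dissociated and sorted by FACS. Bulk RNA-seq covered 12 libraries, in which neural, mural, endothelial and microglial cells were collected from each of 3 brains, called brains 1, 2 and 3 here in the order of their labels (N-340, then N-343, then N-346 for neural cells). Single cells were sorted into wells and sequenced with mCEL-Seq2, a protocol that counts the 3′ ends of transcripts by molecular identifiers, for wild-type brains on plates 1 to 3 (11 libraries) and for *Mof* knockout brains on plates 4 to 6 (12 libraries). The neural gate was negative for every surface marker used, the mural gate was PDGFRb high, the endothelial gate was PECAM1 and CD102 high, the microglia gate was CD41 positive and CD45 medium in the well table (the study's text names CD11b with CD45 for microglia), and a further gate held PDGFRb medium or low cells. The knockout label names MOF, the histone acetyltransferase encoded by *Kat8*, and gives no allele, Cre driver or sort gate, so these limits of the model are not given in the sources used here.

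Bulk depth ran from 17638358 to 98414914 reads per library, recovered from the normalized values. Among wild-type wells with more than 1500 transcripts there were 123 neural, 210 mural, 225 endothelial, 128 microglial and 23 PDGFRb medium or low cells. The median transcripts per cell in those gates were 7717, 6885, 6408, 10761 and 5718. Plate 3 gave between 6 and 14 cells per gate, far fewer than plates 1 and 2. Scored on marker lists that exclude the 9 genes, 121 of the 123 neural-gate cells were neural-like and all 128 microglia-gate cells were microglia-like. In the mural gate 196 of 210 cells were mural-like and 14 were neural-like, and in the endothelial gate 210 of 225 were endothelial-like and 6 were neural-like. In the bulk libraries the summed level of 26 neural markers was 373235 to 405446 in neural, 71874 to 137672 in mural, 27500 to 36746 in endothelial and 12966 to 24958 in microglial cells. The labels do not tie plates to single brains, so the p-values for plates measure only the spread between these plates.

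The genes lie on 7 chromosomes of GRCm38, and all are protein-coding in GENCODE vM21. *Sox2* (ENSMUSG00000074637, chr3:34650405-34652461, plus strand) sits inside the long noncoding gene *Sox2ot* without sharing exon bases with it. *Pax6* (ENSMUSG00000027168, chr2:105668900-105697364, plus strand) overlaps the antisense gene *Pax6os1*, again with no shared exon base. *Sox21* (ENSMUSG00000061517, chr14:118233232-118237030, minus strand) shares 713 exon bases with an antisense transcript, and *Ttyh1* (ENSMUSG00000030428, chr7:4119408-4136708, plus strand) shares 244 and 180 with 2 others, so reads there may be split or dropped depending on how strand was used in counting. The remaining genes are *Fabp7* (ENSMUSG00000019874, chr10:57784881-57788450, plus strand), *Slc1a3* (ENSMUSG00000005360, chr15:8634124-8710764, minus strand), *Vim* (ENSMUSG00000026728, chr2:13573927-13582826, plus strand), *Nes* (ENSMUSG00000004891, chr3:87971078-87980451, plus strand) and *Sox9* (ENSMUSG00000000567, chr11:112782224-112787760, plus strand). None of these 5 shares exon bases with another gene in the annotation.

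Sequence upstream of 8 of the 9 genes was found in RefSeq promoters of build GRCm38.p6, as 9 windows since *Pax6* has 2 starts. *Sox9* had no entry. Each window was read from base 250 to base 51 before the start, and 3 motifs of 6 letters were searched on both strands. A SOX-type motif (ACAAAG or ACAATG) was present in 2 of the 9 windows, against 21.2% of 32851 promoters of the same length. A motif of the RBPJ type (TGGGAA) was present in 1, against 17.9%, and the E-box CAGCTG in 0, against 10.3%. No window held more than 1 of these motifs, so none overlapped. The windows of *Sox2*, whose own protein belongs to the SOX family, and of *Fabp7*, the member whose level departed furthest from the others in mural cells, are shown, with the motif in capitals. In *Sox2* (chr3:34649745-34649944, plus strand) the capitals mark the SOX-type motif, whose first base lies 206 bases before the start. In *Fabp7* (chr10:57784673-57784872, plus strand) they mark the RBPJ-type motif read on the minus strand, 249 bases before the start.
Sox2: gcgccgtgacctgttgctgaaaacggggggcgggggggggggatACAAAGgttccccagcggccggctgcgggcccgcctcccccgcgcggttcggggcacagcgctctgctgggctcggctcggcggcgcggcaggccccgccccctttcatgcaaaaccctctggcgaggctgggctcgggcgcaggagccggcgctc
Fabp7: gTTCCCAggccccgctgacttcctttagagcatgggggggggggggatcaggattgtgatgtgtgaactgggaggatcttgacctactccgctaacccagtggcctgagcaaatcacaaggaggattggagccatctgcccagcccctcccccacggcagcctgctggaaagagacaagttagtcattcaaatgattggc
The *Sox2* window is rich in G and C (76%) and that of *Fabp7* less so (57%). A match to these letters is a description of the sequence and does not mark a bound site.

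In the bulk libraries all 9 genes were higher in neural cells than in the mean of the other 3 populations, but the size of the difference set apart 2 groups. *Sox2*, *Pax6*, *Sox21*, *Slc1a3* and *Ttyh1* differed by more than 4 on the log2(normalized count + 1) scale, and in each the 3 neural libraries lay above all 9 others. *Sox9* differed by 1.79, *Fabp7* by 1.13, *Vim* by 0.59 and *Nes* by 0.56, and in each of these some mural, endothelial or microglial library reached the neural range. All 9 passed limma's test at a Benjamini-Hochberg adjusted p under 0.05, where 32.9% of the 19765 genes tested were higher and 31.2% were lower. The median difference was 4.47 over the 9 genes and 0.09 over all genes tested. In bulk samples, fewer cells of a type and less RNA per cell cannot be told apart. Neural RNA was also extracted and made into libraries with other kits than the other 3 populations, so kit and neural identity cannot be told apart in any of these contrasts.

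**Figure D1:**
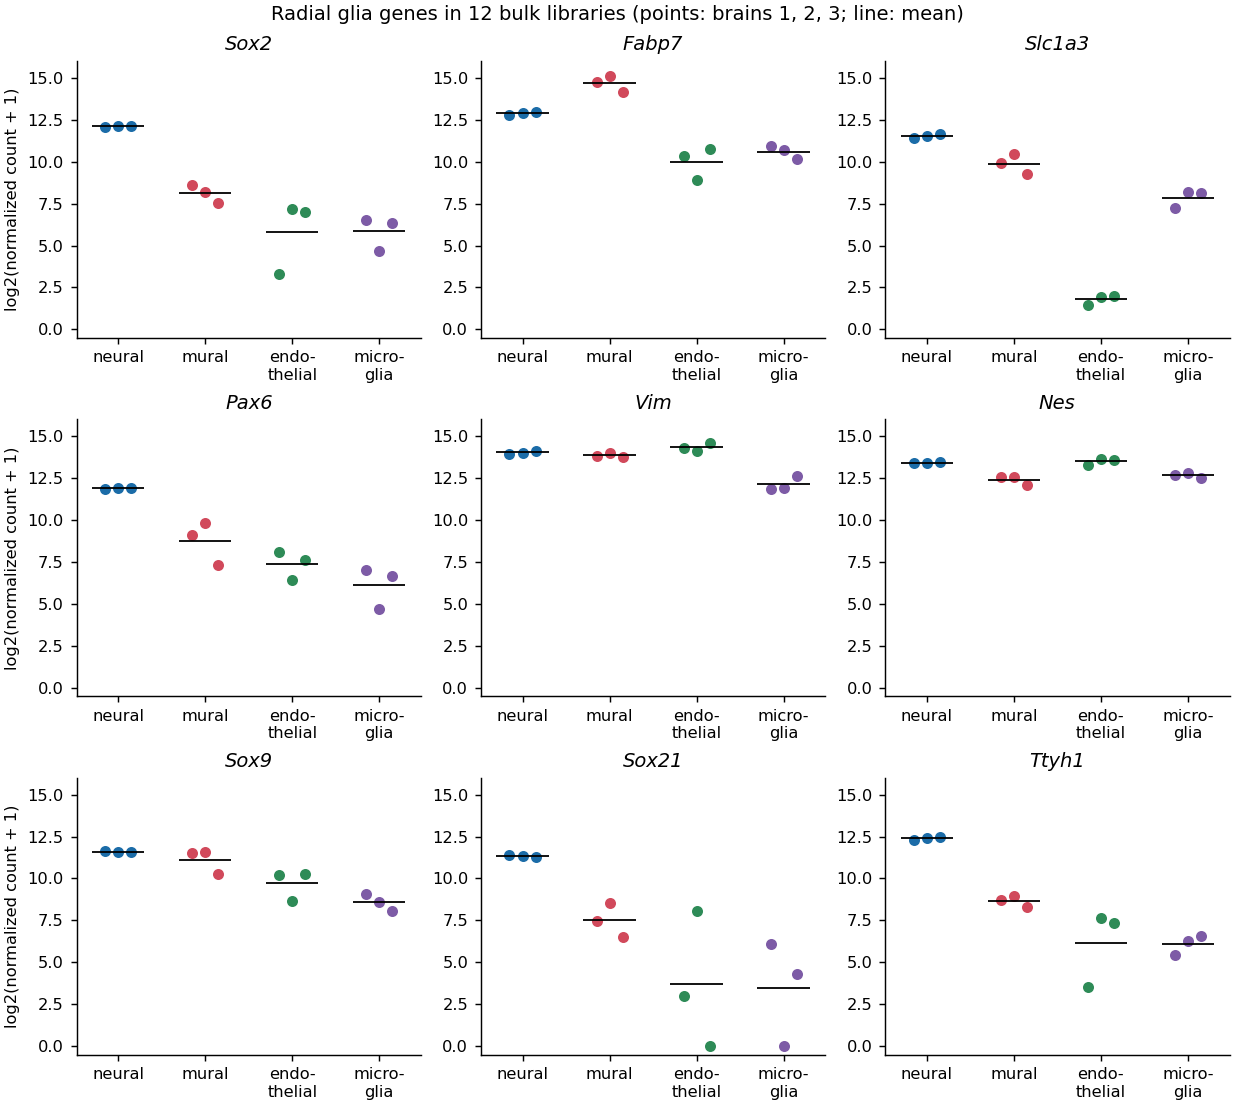
Level of each of the 9 genes in the 12 bulk libraries, as log2(normalized count + 1) on the vertical axis, with a point per brain (1, 2 and 3 from left to right) and a line at the mean of 3. *Sox2*, *Pax6*, *Sox21*, *Slc1a3* and *Ttyh1* lie highest in neural cells in every brain, *Fabp7* lies highest in mural cells, and *Vim* and *Nes* lie high in all populations.

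*Sox2*, which keeps neural progenitors from differentiating, had normalized counts of 4252, 4553 and 4516 in the neural libraries of brains 1, 2 and 3. In mural cells they were 382, 288 and 188. In endothelial cells they were 8.86, 142 and 125, and in microglia 91.5, 24.9 and 79.3. The neural libraries stood at least 10 times above each of the others, and the difference from the mean of the rest was 5.53 ± 0.73 on the log2 scale (SE, n = 3 per population, limma adjusted p = 7.0e-05). Mural cells were next in order, and their difference from endothelial cells (adjusted p = 0.082) and microglia (adjusted p = 0.071) did not pass limma's test.

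*Pax6*, a regulator of cortical progenitor identity, gave 3708, 3830 and 3854 in neural libraries. Mural libraries spread widely, at 554, 912 and 157, while endothelial libraries held 269, 85.2 and 199 and microglial ones 131, 24.9 and 102. The neural excess was 4.47 ± 0.60 on the log2 scale (SE, limma adjusted p = 7.8e-05). *Sox21*, a SOX factor of the B group that opposes *Sox2* activity, gave 2711, 2547 and 2443 in neural libraries, and 176, 370 and 91.1 in mural ones. Endothelial libraries held 7.09, 270 and 0, and microglia 67.8, 0 and 18.9. Its neural excess was 6.43 ± 1.54 (limma adjusted p = 0.0037), with the largest SE of the 9 genes, and the difference between neural and mural cells alone did not pass (3.82 ± 1.88, adjusted p = 0.11).

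*Sox9*, which initiates the glial competence of radial glia and is also used outside the nervous system, gave 3136, 3006 and 3118 in neural libraries. The mural libraries of brains 1 and 2 reached the same level, with 2876 and 3075, while that of brain 3 held 1254. Endothelial libraries held 1185, 409 and 1210, and microglia 537, 382 and 266. Neural and mural cells did not differ by limma's test (0.47 ± 0.46, adjusted p = 0.42), and without the mural library of brain 3 the difference was 0.05. Endothelial cells (1.88 ± 0.46, adjusted p = 0.0049) and microglia (3.02 ± 0.46, adjusted p = 0.00020) both lay below neural cells.

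*Slc1a3*, which clears glutamate from around glia, gave 2754, 3017 and 3225 in neural libraries and 974, 1427 and 604 in mural ones. In endothelial libraries it was close to absent, with 1.77, 2.84 and 3.02, values that stand for 1 or 2 reads per library. Microglia held 147, 289 and 282. Within the bulk libraries this gave the clearest order of the 9 genes, in which each of the 6 pairs of populations passed limma's test. Neural cells lay above mural cells by 1.66 ± 0.40 (adjusted p = 0.0050), mural cells above microglia by 2.04 ± 0.40 (adjusted p = 0.0022), and microglia above endothelial cells by 6.04. In the single-cell gates described below, endothelial cells lay above microglia instead. *Ttyh1* gave 5065, 5547 and 5657 in neural libraries, 419, 494 and 319 in mural ones, 10.6, 197 and 164 in endothelial ones and 42.8, 75.9 and 93.2 in microglia. Its neural excess of 5.42 ± 0.71 (limma adjusted p = 6.2e-05) was of the size seen for *Sox2*.

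*Fabp7*, which carries fatty acids in the cytoplasm of radial glia, did not follow this order. It was highest in mural cells, at 27589, 34842 and 18397, against 7006, 7758 and 8042 in neural cells. Every mural library lay above every neural one, and neural cells were lower than mural cells by a log2 difference of -1.78 ± 0.42 (SE, limma adjusted p = 0.0042). Microglia held 1991, 1659 and 1144 and endothelial cells 1311, 471 and 1727, which did not differ from each other (adjusted p = 0.31). The mural libraries also held neural markers, summing to 71874 to 137672 as given above. Gene by gene, 23 of the 26 neural markers were higher in neural than in mural libraries and 1 was lower by limma. Over all genes 28.7% were higher and 25.8% lower. The median log2 difference of these markers was 4.57. Fibroblast markers summed to 9141 to 12018 in mural against 231 to 279 in neural libraries. The part of neural or fibroblast RNA in the mural *Fabp7* level was not tested. As a percentage of the neural mean, the mural libraries held *Sox2* at 6.44%, *Ttyh1* at 7.58%, *Sox21* at 8.27%, *Pax6* at 14.2%, *Slc1a3* at 33.4%, *Nes* at 49.9%, *Sox9* at 77.8%, *Vim* at 88.5% and *Fabp7* at 354%.

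The filament genes were high in all or nearly all populations. *Vim* gave 15874, 16676 and 17824 in neural, 14277, 16351 and 13968 in mural, 20313, 17561 and 24927 in endothelial and 3707, 3922 and 6460 in microglial libraries. Neural, mural and endothelial cells did not pass limma's test against one another (adjusted p = 0.48, 0.21 and 0.092), and microglia lay below each of them. *Nes* gave 10845, 10826 and 11359 in neural and 10017, 12668 and 12447 in endothelial libraries, which overlapped. Mural libraries held 6044, 6032 and 4413 and microglia 6598, 7221 and 5928. Neural cells exceeded mural cells by 1.02 ± 0.14 (limma adjusted p = 0.00013) and microglia by 0.75 ± 0.14 (adjusted p = 0.00097).

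Divided by exon length, the neural means per kilobase placed *Fabp7* first, at 6082 ± 429 normalized counts per kb (SD, n = 3). *Vim* (3540 ± 207), *Sox2* (2159 ± 80) and *Nes* (1716 ± 47) followed. *Ttyh1* (850 ± 49), *Sox9* (746 ± 17) and *Sox21* (676 ± 36) were lower, and *Slc1a3* (351 ± 28) and *Pax6* (325 ± 7) lowest. The means of *Slc1a3* and *Pax6* differed by less than the SD of *Slc1a3*.

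Over the 6 pairs of populations, 35 of 54 gene-by-pair differences passed limma's test. Neural cells differed from mural cells in 6 of the 9 genes, where 54.6% of all genes tested did, from endothelial cells in 7 (57.7%) and from microglia in 9 (59.8%). Mural and endothelial cells differed in 4 (27.8%), mural cells and microglia in 6 (38.0%), and endothelial cells and microglia in 3 (32.4%). In an exact two-sided permutation test of 3 neural against 9 other libraries, which cannot give a p below 0.0091, *Sox2*, *Pax6*, *Sox21*, *Slc1a3* and *Ttyh1* reached that smallest value. *Sox9* gave p = 0.018, *Nes* 0.15, *Fabp7* 0.40 and *Vim* 0.46, so the neural excess of the last 3 rests on the pooled spread of limma and on the mean of 3 unlike populations. Without the neural library of brain 3, *Fabp7* no longer passed (1.09, adjusted p = 0.053).

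Families of the members did not behave alike. Of 16 SOX genes tested, the 3 members included, 13 were higher in neural cells and 2 were lower by limma. *Sox1* (7.71 ± 0.60), *Sox3* (7.04 ± 1.38) and *Sox11* (2.0 ± 0.15), all factors of the neural lineage, were among those that rose, and *Sox17*, a factor of the endothelium, was lower (-5.39 ± 1.01). *Fabp5*, the close relative of *Fabp7*, was higher (2.48 ± 0.15), with 3913, 4186 and 4481 in neural and 2580, 2950 and 2643 in mural libraries, so it lacked the mural peak of *Fabp7*. *Ttyh3* was higher in neural cells (3.56 ± 0.20) and *Ttyh2* lower (-2.65 ± 0.16), with opposite signs within a family of 3. *Slc1a2*, the second glial glutamate transporter, was higher by 7.84 ± 1.21. Among 14 intermediate filament genes 7 were higher, *Vim* and *Nes* included, led by the neuronal filaments *Ina* (6.47 ± 0.34) and *Nefl* (6.39 ± 1.11), and the nuclear lamin gene *Lmna* was lower (-3.60 ± 0.24).

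Of 26 further radial glia genes, 19 were higher in neural cells and 5 were lower by limma, with a median of 3.05. *Tnc*, a matrix protein of the ventricular zone, rose by 7.93 ± 1.18, *Ptprz1*, a receptor phosphatase, by 7.25 ± 0.80, *Fgfr3* by 6.86 ± 0.75 and *Emx2*, a cortical patterning factor, by 6.83 ± 1.32. The 5 that fell included *Hes1*, a target of Notch signalling (-2.04 ± 0.15), with 815, 812 and 763 in neural libraries against 7886, 8009 and 9588 in mural ones. *Mfge8* (-1.08 ± 0.18), *Dbi* (-1.12 ± 0.16), *Qk* (-1.17 ± 0.17) and *Zfp36l1* (-0.92 ± 0.30) were the others. Young neuron genes were higher in 23 of 24 cases and lower in 0, so the neural excess in bulk was shared by progenitor and neuronal genes.

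By Pearson correlation of log2 levels over the 12 libraries, which fall into 4 populations and so give a description only, *Sox2* was most like *Fem1b*, *Pex5* and *Rab3c* (r = 0.98 to 0.97) and *Slc1a3* most like *Dusp14*, *Chpf* and *Fabp5* (0.99). *Fabp7* was most like *Plce1* and *Daam2* (0.97), of which *Plce1* gave 1015, 1007 and 1171 in neural and 7462, 9949 and 8060 in mural libraries. *Pax6* was most like *Zfp184*, *Wasf1* and *Hnrnpr* (0.98 to 0.97), *Sox9* like *Gm4204*, *Prdx2* and *Kif26b* (0.97 to 0.96), *Sox21* like *Xkr6*, *Bcor* and *Cish* (0.96 to 0.94) and *Ttyh1* like *Akap6*, *Mex3d* and *Rad21* (0.98 to 0.97). *Vim* was most like *Dennd5b*, *Il17rd* and *Fbxl7* (0.98) and *Nes* like *Podxl*, *Jam2* and *Ptprr* (0.96 to 0.95). *Podxl* and *Jam2* were high in both neural and endothelial libraries, as was *Nes*.

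In the wild-type single cells, 7 of the 9 genes were higher in the neural gate than in the mean of the mural, endothelial and microglia gates, *Nes* was lower, and *Vim* did not pass. The transcripts of all cells from a gate on a plate formed 1 sum, in transcripts per 1000000 (CPM), and the sums were tested by edgeR's quasi-likelihood method with Benjamini-Hochberg adjustment, in which 22.5% of 9281 genes were higher and 17.3% were lower. The log2 differences were 5.003 ± 0.36 for *Pax6*, 4.95 ± 0.37 for *Sox2*, 4.42 ± 0.50 for *Sox21*, 2.97 ± 0.44 for *Slc1a3*, 2.59 ± 0.42 for *Ttyh1*, 2.50 ± 0.27 for *Sox9* and 2.30 ± 0.33 for *Fabp7* (SE, n = 3 plates per gate). The value for *Sox21* depends on the prior count, since the microglia gate held none of its transcripts. *Vim* gave -0.29 ± 0.28 (adjusted p = 0.46) and *Nes* -0.76 ± 0.26 (adjusted p = 0.014), and *Nes* no longer passed without plate 1 or without plate 2. Without plate 3 *Vim* was lower too (-0.57, adjusted p = 0.0018).

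**Figure D2:**
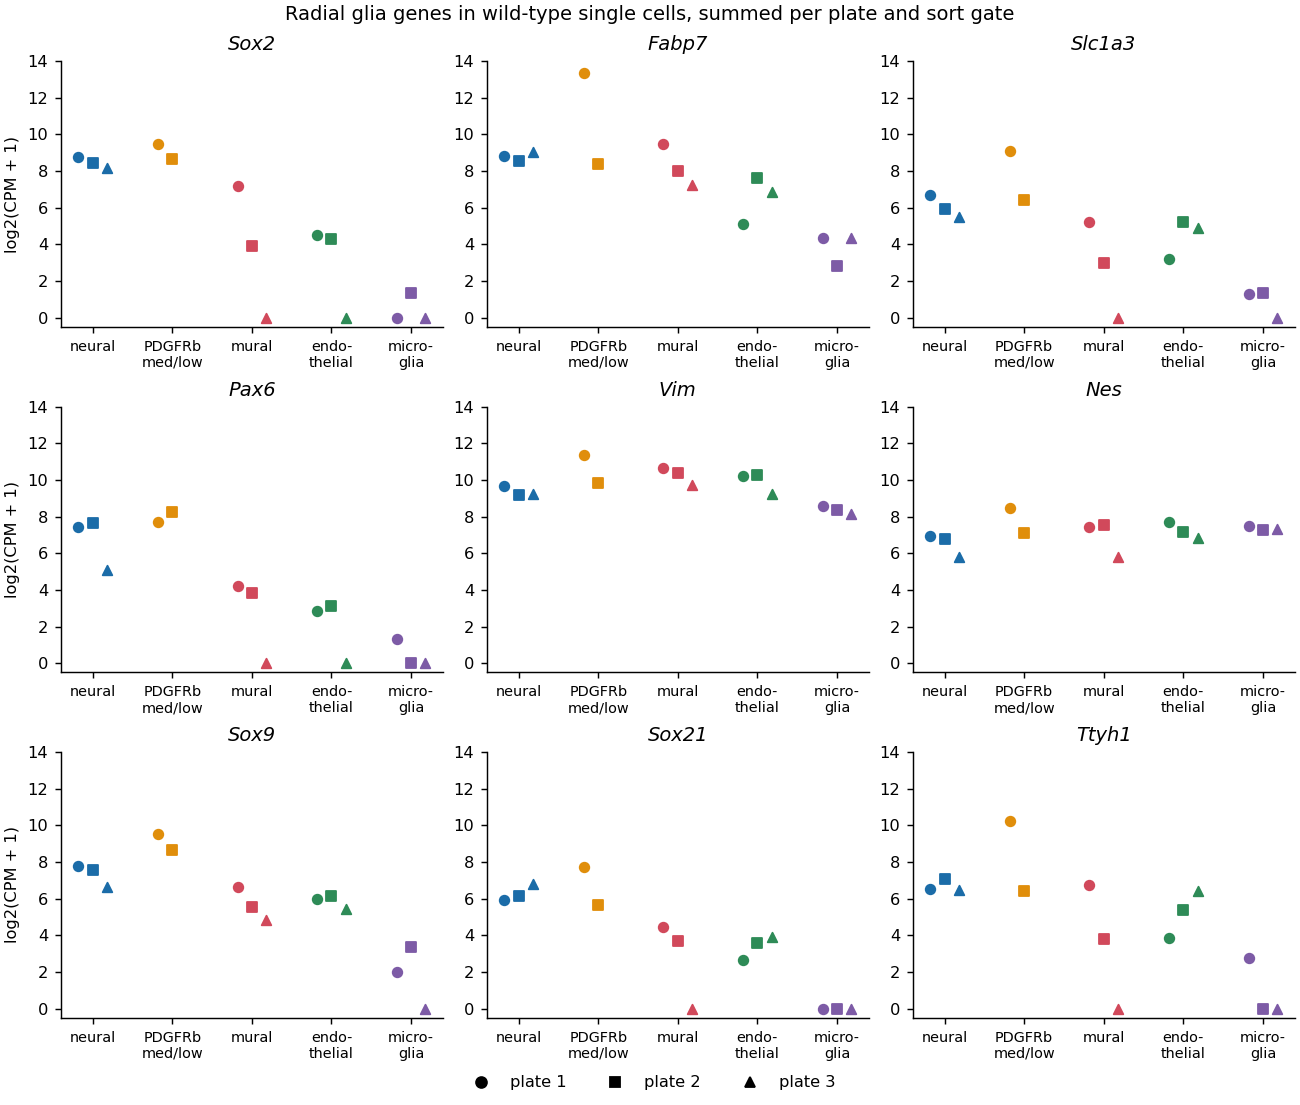
CPM of each gene in the sums of cells per sort gate and plate, as log2(CPM + 1), with a point per plate and gate. The neural gate and the PDGFRb medium or low gate lie highest for *Sox2* and *Pax6*, while *Vim* and *Nes* are found in all gates, *Vim* lowest in the microglia gate.

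*Sox2* stood at 430, 343.5 and 285 CPM in the neural gate on plates 1, 2 and 3. The mural gate held 146, 14.2 and 0 CPM, the endothelial gate 21.9, 18.9 and 0, and the microglia gate 0, 1.55 and 0. At least 1 transcript was found in 56.1% of neural cells (exact 95% interval 46.9 to 65.0), 11% of mural, 8.0% of endothelial and 0.781% of microglial cells, although microglia were sequenced most deeply. After each cell was thinned to 1500 transcripts the neural share was 31.7% and the microglial share was 0% (upper bound 2.84%). These intervals cover counting error only. *Pax6* stood at 171, 201 and 32.9 CPM in the neural gate, where 3 transcripts on plate 3 came from 1 cell, and at no more than 17.4 CPM in any mural, endothelial or microglial sum.

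*Sox21* held 59.8, 68.7 and 110 CPM in the neural gate and 20.6, 11.8 and 0 in the mural gate, and it was found in 0 of 128 microglia (upper bound 2.84%). *Sox9* held 219, 185 and 98.5 CPM in the neural gate, 99.8, 46.1 and 27.5 in the mural, 62.5, 70.8 and 42.7 in the endothelial and 2.96, 9.32 and 0 in the microglia gate. Neural and mural gates differed for *Sox9* by 1.48 ± 0.30 (edgeR adjusted p = 5.8e-05), and mural and endothelial gates did not (adjusted p = 0.91). *Slc1a3* held 102, 59.2 and 43.8 CPM in the neural gate, 36.4, 7.09 and 0 in the mural and 8.34, 36.2 and 28.5 in the endothelial gate. The last value was 2 transcripts, none of them in the 8 endothelial-like cells among the 13 of plate 3. Those 8 cells also held no *Sox2*, *Fabp7*, *Pax6* or *Sox21*. On plate 2 the endothelial-like cells held 23 *Slc1a3* transcripts, in 4 of 91 cells. In the microglia gate 2 of 128 cells held *Slc1a3*. The endothelial gate lay above the microglia gate by 3.48 ± 0.93 (edgeR adjusted p = 0.0019), opposite to the bulk order. Mural and endothelial gates did not differ (adjusted p = 0.80). *Ttyh1* held 93.0, 135 and 87.6 CPM in the neural gate and 106, 13.0 and 0 in the mural gate, so that on plate 1 its mural sum lay above its neural sum.

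*Fabp7* held 453, 377 and 528 CPM in the neural gate and 721, 252 and 151.1 in the mural gate. The gates overlapped and their difference did not pass (0.21 ± 0.38, edgeR adjusted p = 0.73). A larger share of mural than of neural cells held the gene, however, at 70.5% (63.8 to 76.6) against 39.8% (31.1 to 49.1), and 34.8% (28.3 to 41.6) against 22.0% (14.99 to 30.3) after thinning to 1500 transcripts, where the intervals overlapped. The share was 12% in endothelial cells and 11.7% in microglia, which fell to 3.56% and 2.34% after thinning. Median depths were 6885 transcripts in mural, 7717 in neural and 10761 in microglial cells. *Fabp7* was therefore found at a low level in many mural-gate cells and at a high level in fewer neural-gate cells.

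*Vim* held 825, 583 and 592 CPM in the neural gate, 1620, 1336 and 839 in the mural, 1183, 1245 and 599 in the endothelial and 382, 330 and 276 in the microglia gate. On each plate the mural sum exceeded the neural sum (-0.87 ± 0.34, edgeR adjusted p = 0.040). *Nes* held 122, 109 and 54.8 CPM in the neural gate, 169, 182 and 54.9 in the mural, 206, 141 and 114 in the endothelial and 181, 152 and 158 in the microglia gate. In microglia 67.2% of cells (58.3 to 75.2) held a *Nes* transcript against 32.5% (24.4 to 41.6) of neural cells, at a deeper median, and after thinning the shares were 21.9% and 13.8%, with overlapping intervals.

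Over the 6 pairs of gates 40 of 54 differences passed edgeR's test. The neural gate differed from the mural gate in 7 genes (33.1% of all genes did), from the endothelial gate in 8 (36.4%) and from the microglia gate in 8 (44.3%). Mural and endothelial gates differed in 2 (20.7%), mural and microglia gates in 8 (37.7%), and endothelial and microglia gates in 7 (36.2%). The 14 neural-like cells of the mural gate, 12 of them on plate 1, held 85.6% of that gate's *Sox2* transcripts, 82.8% of *Slc1a3*, 73.1% of *Ttyh1*, 65.2% of *Sox21* and 59.1% of *Pax6*. They held 43.3% of *Fabp7*, 40.4% of *Sox9*, 14% of *Nes* and 8.56% of *Vim*. In the 196 mural-like cells *Sox2* stood at 10.4 CPM and *Slc1a3* at 3.45 CPM, but *Fabp7* at 266 CPM, with a transcript in 138 cells (70.4%). With the neural-like cells left out, which was decided after the data were seen, the neural gate exceeded the mural gate by 5.0 for *Sox2*, 4.24 for *Slc1a3* and 2.78 for *Ttyh1*, and by 0.74 for *Fabp7*, which again did not pass (adjusted p = 0.082).

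**Figure D3:**
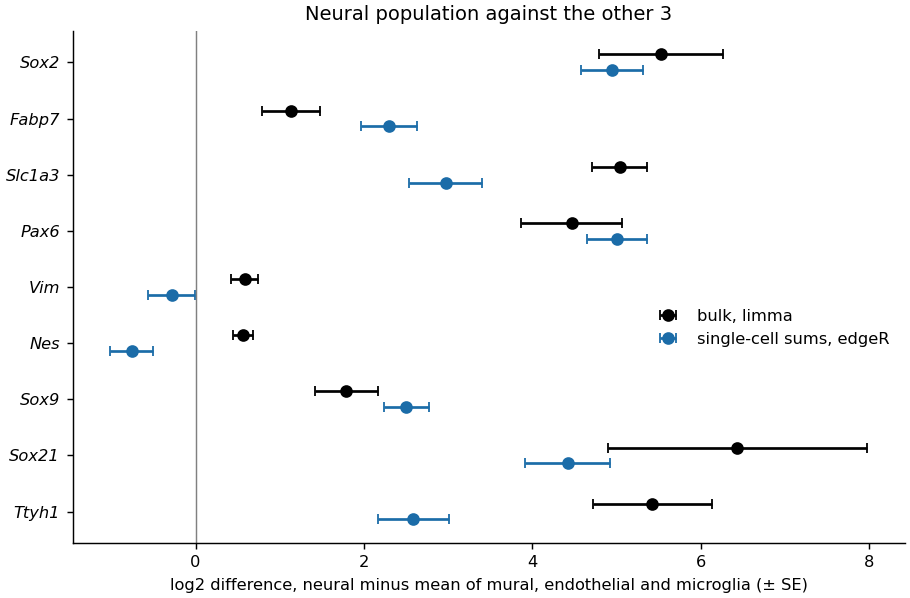
Difference between the neural population and the mean of the other 3 for each gene, in log2 units with bars of ± 1 SE, from the bulk libraries (limma, black) and from the single-cell sums (edgeR, blue). *Sox2*, *Pax6* and *Sox21* lie near or above 4.4 in both data sets, and *Vim* and *Nes* lie above 0 in bulk and below 0 in the single cells.

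Of 22 further radial glia genes tested in the gates, 16 were higher in the neural gate and 4 were lower by edgeR. *Lhx2* (6.35 ± 0.37), a LIM homeobox factor, *Msi1* (5.88 ± 0.44), an RNA-binding protein of progenitors, *Fgfr2* (4.99 ± 0.63) and *Id4* (3.73 ± 0.34), an inhibitor of differentiation, were among those that rose. *Hes1* (-2.01 ± 0.35), *Mfge8* (-2.08 ± 0.38), *Qk* (-1.10 ± 0.29) and *Zfp36l1* (-0.91 ± 0.31) fell, and all 4 were also lower in the bulk neural libraries. In the families, *Sox1* (5.43 ± 0.47), *Fabp5* (1.58 ± 0.25) and *Slc1a2* (3.37 ± 0.32) rose, and *Ttyh2* fell (-4.44 ± 0.46).

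Within the neural gate the level of each of the 9 genes was higher in the cells with fewer neuronal transcripts. The cells of each plate were divided at the plate's median of a summed young neuron score of 24 genes, none of which is a member. As both sums share a total, this is a description and no test was made. *Fabp7* stood at 965, 788 and 827 CPM in cells at or below the median on plates 1, 2 and 3, against 20.4, 30.5 and 0 CPM above it. *Slc1a3* stood at 223, 114 and 68.7 against 0, 13.1 and 0, and *Sox9* at 450, 373 and 155 against 24.5, 26.2 and 0. *Vim* stood at 1541, 1063 and 894 against 221, 179 and 60.4 CPM, and *Nes* at 252, 202 and 85.9 against 12.3, 30.5 and 0.

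*Sox2* and *Pax6* were the genes least divided in this way on plates 1 and 2. *Sox2* stood at 682, 533 and 430 CPM below the median and at 217, 183 and 30.2 above it. *Pax6* stood at 295, 254 and 51.5 against 65.4, 157 and 0. *Sox21* (131, 140 and 172 against 0, 8.73 and 0) and *Ttyh1* (184, 285 and 137 against 16.3, 8.73 and 0) were close to absent from the neuronal side. All 9 genes were higher on the side of fewer neuronal transcripts on all 3 plates. The filament genes differed between these sides as well, *Vim* by 6.98 times on plate 1 and 5.94 times on plate 2 and *Nes* by 21 and 6.61 times. Median depth was 6904 and 8354 transcripts per cell on the 2 sides of plate 1, 7581 and 7718 on plate 2, and 6147 and 2815 on plate 3.

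**Figure D4:**
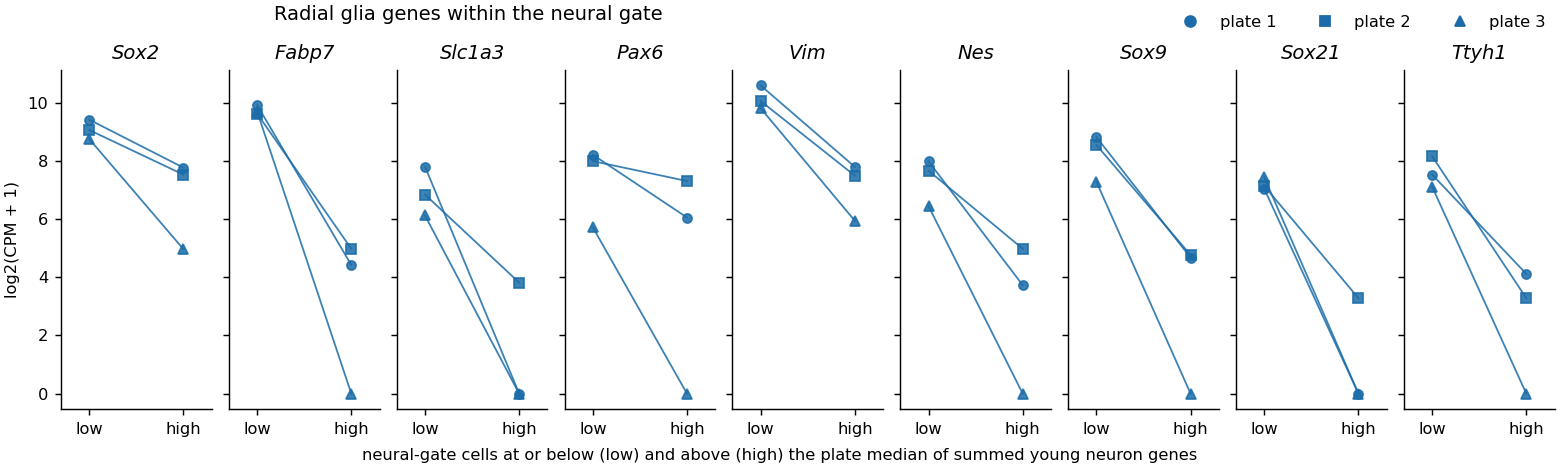
CPM of each gene in neural-gate cells at or below and above the median young neuron score of their plate, as log2(CPM + 1), with a line joining both sides of a plate. Every line falls toward the neuronal side, from 965 to 20.4 CPM for *Fabp7* on plate 1 and less steeply for *Sox2*, from 682 to 217 CPM.

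The PDGFRb medium or low gate, sorted on plates 1 and 2 only, held more transcripts of several radial glia genes than the neural gate itself. In a fit of all 5 gates with edgeR, 4 of the 9 genes were higher there than in the neural gate, where 2.71% of 9740 genes were. These were *Fabp7* (3.36 ± 0.60, adjusted p = 0.00014), *Ttyh1* (2.48 ± 0.50, adjusted p = 0.00083), *Slc1a3* (2.03 ± 0.47, adjusted p = 0.0039) and *Sox9* (1.47 ± 0.33, adjusted p = 0.0029). *Vim* gave 1.18 ± 0.39 (adjusted p = 0.063), *Nes* 1.10 ± 0.41 (adjusted p = 0.11), *Sox21* 0.82 ± 0.50, *Pax6* 0.43 ± 0.39 and *Sox2* 0.42 ± 0.42. Against the mural gate 7 were higher (2.82% of all genes), with *Slc1a3* at 3.91 ± 0.53, *Pax6* at 3.79 ± 0.50 and *Fabp7* at 3.51 ± 0.60, and *Vim* and *Nes* did not pass. With plate as a block in the fit, *Vim* also passed against the neural gate, where 294 of 9740 genes were higher.

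The 2 plates differed, and most of this excess came from plate 1. *Fabp7* stood at 10327 CPM on plate 1 and 335 on plate 2, against 453 and 377 in the neural gate. *Ttyh1* stood at 1210 and 83.8 CPM, *Slc1a3* at 556 and 83.8, *Sox9* at 738 and 403, *Sox2* at 700 and 403 and *Pax6* at 211 and 302. Only *Sox9*, *Slc1a3*, *Sox2*, *Pax6*, *Vim* and *Nes* were thus above the neural gate on both plates. Without plate 1, 0 of the 9 genes passed against the neural gate, where 71 of 3485 genes were higher, and 2 against the mural gate, where 8 were, but the gate was then a single sum of 9 cells, assumed to vary like the other gates. With DESeq2, 2 passed against the neural gate, where 186 of 21450 genes were higher.

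By their markers the 23 cells were of 2 kinds. On plate 1, 11 of 14 cells were neural-like and 3 mural-like, and on plate 2, 3 of 9 were neural-like and 6 mural-like. *Rgs5*, a pericyte gene, was found in 3 of the 11 neural-like cells of plate 1 and in all 3 mural-like ones, at 122 and 8141 CPM, and *Pdgfrb* in 4 and 3 of them. Among those 11 neural-like cells *Fabp7* ran from 0 to 608 transcripts per 10000, with a median of 113, and no cell held more than 19.1% of its transcripts. The 3 mural-like cells of plate 1 held *Fabp7* in 1 cell and neither *Sox2*, *Slc1a3*, *Pax6*, *Sox21* nor *Ttyh1*. In the whole gate 13 of 25 further radial glia genes were higher than in the neural gate, where 2.71% of 9740 genes were. Among them were *Mfge8* (3.67 ± 0.45), *Hes5* (3.5 ± 0.54), *Fgfr3* (3.17 ± 0.53), *Ednrb* (2.99 ± 0.49) and *Hopx* (2.80 ± 0.59). *Mfge8* was also high in the mural gate, with a neural minus mural difference of -4.39 ± 0.35. Young neuron genes were lower than in the neural gate in 20 of 24 cases, where 2.45% of all genes were. Mural markers moved with the gate as well, with 10 of 12 higher than in the neural gate and a summed level of 2358 to 5143 CPM against 43.8 to 135. Cell by cell, the mural markers summed to at most 15.6 transcripts per 10000 in the neural-like cells of plate 1 and 4.14 in those of plate 2, and to 82.8 to 167 and 6.34 to 164 in the mural-like cells. Their part in the differences was not tested.

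On the knockout plates none of the 9 genes passed the test against wild type in neural-like cells, though *Nes* was higher on every knockout plate than on every wild-type plate. *Kat8* stood at 25.0, 29.0 and 10.2 CPM in neural-like cells of wild-type plates 1, 2 and 3 and at 5.53, 7.61 and 26.7 on knockout plates 4, 5 and 6, from 1 to 16 transcripts per plate. As the deleted part of the gene is not given, it is unknown whether the 3′ tag lies in it, and these values do not check the labels. As no sort gate was given, cells were assigned by their markers, which gave 80, 59 and 16 neural-like cells on plates 1 to 3 and 53, 113 and 38 on plates 4 to 6. Of the 80 on plate 1, 54 came from the neural gate, 12 from the mural gate and 11 from the PDGFRb medium or low gate. The remaining cells of plate 4 were nearly all mural-like (282), those of plate 5 microglia-like (80) and those of plate 6 endothelial-like (300).

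With edgeR, 0 of the 9 genes passed, as did 0 of the 7291 genes tested (0.0%), while 347 genes had an unadjusted p under 0.05. DESeq2 called 0 of the 9, and 2 genes in all. The log2 differences were 1.81 ± 0.85 for *Slc1a3*, 1.59 ± 0.86 for *Ttyh1*, 1.48 ± 0.64 for *Sox9*, 1.28 ± 0.45 for *Nes*, 1.23 ± 0.55 for *Vim* and 1.17 ± 0.96 for *Fabp7* (SE, n = 3 plates, every adjusted p at or above 0.89). *Sox21* gave 0.41 ± 0.32, *Sox2* 0.32 ± 0.40 and *Pax6* 0.21 ± 0.45. With no filter on low counts, where 80 of 18973 genes were higher and 17 were lower, 6 of the 9 passed, namely *Fabp7*, *Slc1a3*, *Vim*, *Nes*, *Sox9* and *Ttyh1*.

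Plate 4 stood apart from the other plates for most of these genes, *Pax6* excepted. There *Fabp7* stood at 6166 CPM, against 456 and 786 on plates 5 and 6 and 2423, 386 and 521 on wild-type plates 1 to 3. Of the 1554 *Fabp7* transcripts behind the value of plate 1, 1078 came from the 11 PDGFRb medium or low cells. Another 280 came from the 12 mural-gate cells, and the neural gate of that plate stood at 453 CPM. *Sox9* stood at 1307 CPM on plate 4, against 369 and 195 on the other knockout plates and 331, 230 and 102 in wild type. *Slc1a3* stood at 911, against 89.2 and 153, and 200, 62.2 and 50.9. *Vim* stood at 3748, against 1101 and 827, and 1241, 623 and 551. *Nes*, at 513, 221 and 191 CPM on plates 4 to 6, lay above all 3 wild-type plates (186, 128 and 50.9), and it was the member whose plates did not overlap.

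The neural-like cells of plate 4 were also of another makeup. Their further radial glia genes outweighed their young neuron genes in 51 of 53 cells, against 49 of 113 on plate 5, 9 of 38 on plate 6 and 32 of 80, 14 of 59 and 3 of 16 in wild type. The summed young neuron level was 2147 CPM on plate 4 and 7404 to 11240 on the other 5 plates, and the summed mural marker level 469 against 61.1 to 186. Without plate 4 the difference was -0.88 for *Fabp7*, -0.39 for *Ttyh1*, -0.22 for *Sox2* and -0.037 for *Slc1a3*, and 0.63 for *Nes*. Among the cells on the radial glia side alone, *Fabp7* stood at 6319, 890 and 2604 CPM on plates 4 to 6 and at 6141, 1381 and 2579 on plates 1 to 3, and *Sox2* at 821, 740 and 730 against 957, 839 and 375. *Nes* stood at 526, 415 and 521 CPM there, against 418, 407 and 107, so that its plates overlapped among these cells. Of the 32 such cells of plate 1, 9 came from the PDGFRb medium or low gate. That the gates and so the cells sorted may have differed between plates cannot be told apart from the genotype.

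**Figure D5:**
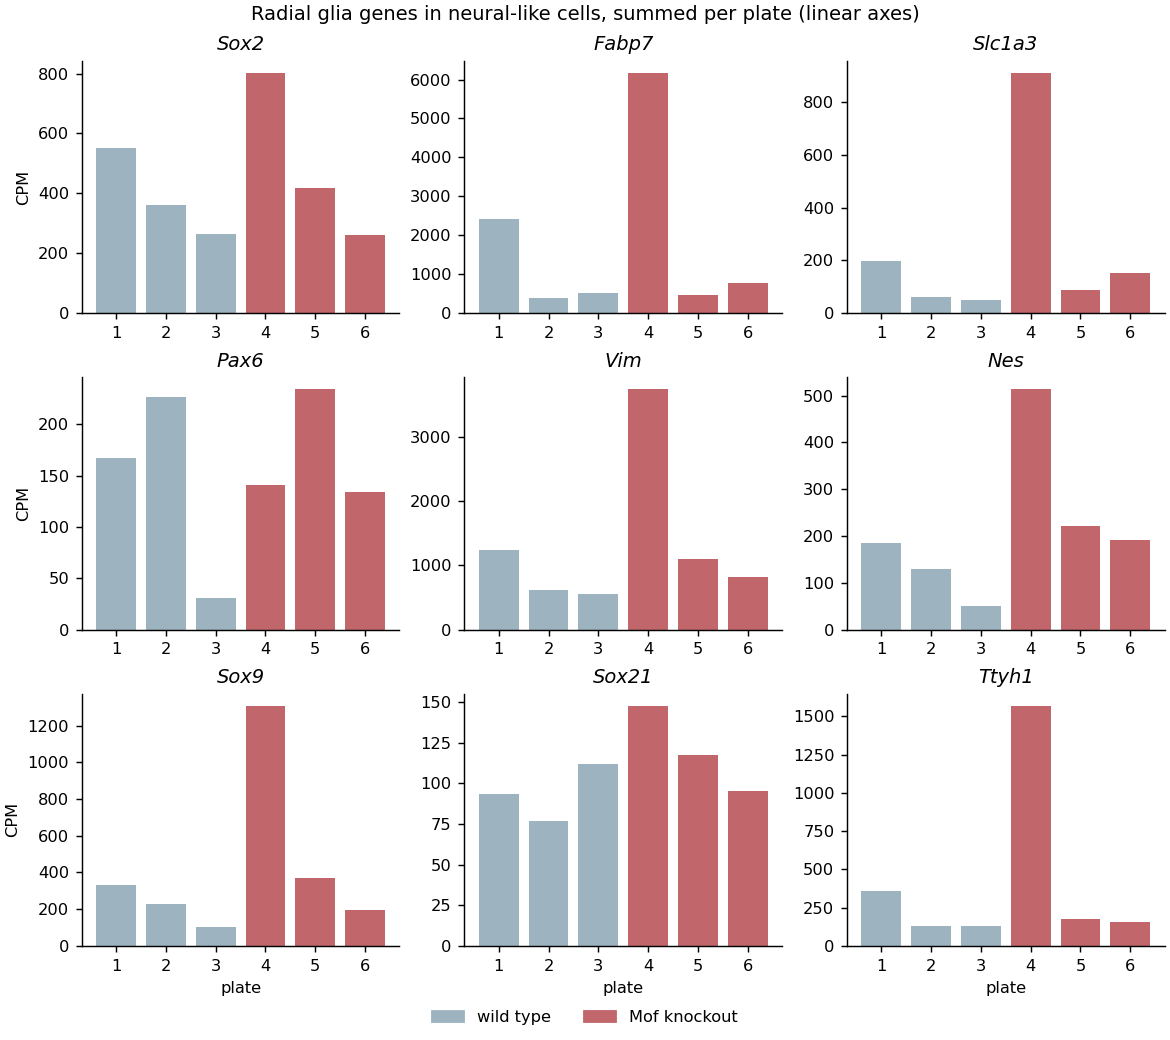
CPM of each gene in the neural-like cells of each plate, with wild-type plates 1 to 3 and *Mof* knockout plates 4 to 6 as bars from 0. Plate 4 stands highest for 8 of the 9 genes, with 6166 CPM of *Fabp7*, and plates 5 and 6 overlap the wild-type plates for most genes.

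Outside the neural-like cells *Fabp7* was also found in mural-like cells of the knockout plates. In the 282 mural-like cells of plate 4 it stood at 299 CPM and was found in 194 cells (68.8%), while *Slc1a3* stood at 34.2 CPM in 19 cells. The 11 mural-like cells of plate 6 held it at 66.5 CPM, in 3 cells. In wild type the mural-like cells of plates 1, 2 and 3 held *Fabp7* at 329, 244 and 173 CPM. In the 300 endothelial-like cells of plate 6 *Fabp7* was found in 7.0% and *Vim* in 94.7%, and in the 80 microglia-like cells of plate 5 *Nes* was found in 46.2%. No test of genotype was made for these classes, each of which came mainly from a single knockout plate. In the barcode positions that the knockout libraries did not use, 1.49 to 4.91% of transcripts were found, with *Fabp7* at up to 945 CPM among them, which limits how far a low share of cells can be read as expression.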

How the data were processed

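Neural, mural, endothelial and microglial bulk libraries (n = 3 each), 11 wild-type and 12 *Mof* knockout single-cell libraries were used. The 9 genes, the lists and the tests were chosen with earlier results of these data known. For bulk, the authors deposited normalized counts, treated as a linear signal. Divided by the worth of 1 read in their library, 100% of 124078 values of up to 100 reads were whole within 0.01, so reads were recovered for the alternatives with edgeR and DESeq2. For single cells, the deposited values are expected transcript counts per well, corrected by the authors for repeated identifiers. They were rounded after summing. The submitters' processing notes name BWA 0.6.2-r126, STAR, featureCounts, DESeq2 and mm10, without strand settings.

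Bulk values were compared as log2(normalized count + 1) with limma 3.58.1, for genes with a mean of at least 10. Gate sums of each plate were tested by edgeR 4.0.16 (TMM, quasi-likelihood, filterByExpr), with DESeq2 1.42.0 tried as well (R 4.3.3). Tests were two-sided with Benjamini-Hochberg adjustment. Cells needed more than 1500 transcripts without spike-ins. Wells were sorted for 1 cell each and doublets were not called, so any wells with more than 1 cell were not told apart. Libraries reuse the same 192 barcode positions, which name wells, not cells. In all, 37 wells without a gate were left out. Each cell took the name of the marker list with the highest mean log2 level, as neural-like and so on. Shares carry exact (Clopper-Pearson) 95% intervals. Neighbouring patterns were taken as the 3 genes with the highest correlation per member, of which 1 is not reported here. Beside the members, genes of the same families that passed and up to 6 further radial glia genes in each direction were eligible to be named. Python 3.11.15, numpy 2.4.6, pandas 2.3.3, scipy 1.17.1 and matplotlib 3.10.9 were used, and the methods were tested on simulated data.

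Equal numbers in the bulk labels were read as 1 brain. Residual correlations between them ran from -0.054 to 0.0801, and those between gates of a plate from -0.026 to 0.0846, so blocks for brain and plate were kept as alternatives. Others were the pseudocount (0.5 and 10), filters, quantile normalization, a minimum of 3000 transcripts and each replicate left out in turn.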

Additional observations from a re-analysis of the deposited data

Results flagged for a closer look

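In 3 of the 6 contrasts of *Vim* and *Nes* between neural cells and another population, every brain of the bulk libraries lay on one side and every plate of the single cells on the other. *Vim* was higher in neural than in mural cells by a mean log2 difference of 0.18 over the 3 brains, which did not pass limma's test, and lower by -0.89 over the 3 plates. *Nes* was higher in neural than in mural cells by 1.02 in bulk and lower by -0.40 in the single cells, which did not pass edgeR's test. *Nes* was also higher in neural cells than in microglia by 0.75 in bulk and lower by -0.85 in the single cells. *Vim* against microglia (1.88 and 1.01) and against endothelial cells (-0.30 and -0.54) and *Nes* against endothelial cells (-0.08 and -0.72) had the same sign in both. The difference between the data sets itself was not tested. Bulk libraries read whole transcripts, with another kit for neural cells than for the other 3 populations, and the single cells were read by 3′ tags with the same protocol in all gates. The part of the kit was not tested.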

How the results depend on the processing

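In bulk, all 9 members stayed higher in neural cells under every alternative except DESeq2 on recovered reads, which gave no adjusted p for *Sox21* and called 8, and the omission of the neural library of brain 3, which also gave 8. *Sox7* reversed to 0.92 with DESeq2. In the gates, the 1 member called lower became 0 with DESeq2, and 0 to 2 when a plate was left out. The 40 differences between pairs of gates became 22 to 43 when a plate was left out (genes higher in the neural gate, over all tested, became 759 to 2242 from 2084). The *Fabp7* difference between neural and mural gates ran from -0.37 (without plate 3) to 1.03. For the PDGFRb medium or low gate, the 4 genes above the neural gate became 2 with DESeq2 and 0 to 5 when a plate was left out, and the 7 above the mural gate became 2 to 7. Without plate 1 or 2 this gate is a single sum, assumed to vary like the other gates. Over all genes, 264 of 9740 were higher than in the neural gate and 275 than in the mural gate in the main fit. These became 341 and 305 of 10672 without plate 3, and 186 and 108 of 21450 with DESeq2. With a plate left out, differences from the neural gate ran from -0.70 to 4.10 for *Fabp7*, -0.70 to 3.47 for *Ttyh1* and -1.07 to 1.09 for *Sox21*, and those from the mural gate from -0.53 to 0.91 for *Vim* (-0.020 without plate 3) and -0.32 to 1.25 for *Nes*. Each of these was lowest without plate 1.

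For the knockout, 6 members passed with no filter on low counts and 0 under the other alternatives run. Among cells on the radial glia side alone, *Sox2* (-0.0076), *Fabp7* (-0.087), *Pax6* (-0.057) and *Sox21* (-0.028) reversed. With a plate left out, the difference ran from -0.22 to 0.64 for *Sox2*, -0.88 to 2.33 for *Fabp7*, -0.037 to 2.68 for *Slc1a3* and -0.39 to 2.20 for *Ttyh1*, each lowest without plate 4. That of *Pax6* ran from -0.15 (without plate 5) to 0.64, and was -0.089 without wild-type plate 3. The causes of these changes were not tested. With a replicate block for plate, *Vim* passed in the PDGFRb medium or low gate against the neural gate (0.97, edgeR adjusted p = 0.025), giving 5 genes there. With a block for brain or plate, 36 bulk pairs and 42 gate pairs passed in place of 35 and 40. Over all genes, those higher and lower in bulk neural cells than in the rest became 6417 and 6067 from 6510 and 6170. In the neural gate they became 2203 and 1717 from 2084 and 1610.

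Depth limits the rarest values. *Pax6* in the neural gate of plate 3 rests on 3 transcripts of 1 cell, *Slc1a3* in bulk endothelial cells on 1 or 2 reads per library, and the PDGFRb medium or low gate on 23 cells of 2 plates.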
